A study of Rattus norvegicus with 12 samples.

Results

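The genes of the insulin-like growth factor (IGF) system examined here were the ligands Igf1 and Igf2, the receptors Igf1r and Igf2r, the binding proteins Igfbp2 to Igfbp6 and the protease Pappa, taken by gene name from the expression table of rat ovary. Of these 10 names, 9 had a row among the 19730 genes of the table, and all 9 were expressed highly enough to be tested. No row carried the name Pappa, and this gene was not analysed here. Each of the 12 libraries was made from the ovary of 1 wild type Sprague Dawley rat at post natal week 15, with 4 rats in each of 3 groups. The control group was untreated and received standard food. The rats of the PCOS group, named for polycystic ovary syndrome, had received letrozole for 30 days, an aromatase inhibitor that blocks the conversion of androgens to estrogens, together with a high-fat diet. The PCOS-MV group had the same 30 days of letrozole with the high-fat diet and then 30 days of mogroside V (MV), a sweet triterpene glycoside of monk fruit, given as a fruit preparation that was not pure MV. By the study's methods, rats were accepted as PCOS models from a vaginal smear that stayed in metestrus and diestrus, and what the PCOS group was given during the MV course is not stated. The cycle stage of each rat at sampling is not given in the sources used here.

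As background, Igf1 and Igf2 encode secreted ligands that act mainly through Igf1r, a receptor tyrosine kinase whose signal runs through Irs proteins, PI3 kinase and Akt. Igf2r, which is also the cation-independent mannose 6-phosphate receptor, carries lysosomal enzymes and removes IGF2 from the cell surface. The binding proteins hold IGFs outside the cell and are cut by proteases, and Pappa is the protease that cuts Igfbp4. In the rodent ovary Igf1 is made by granulosa cells of growing follicles and raises their response to follicle stimulating hormone (FSH), Igfbp2 is a product of theca and interstitial cells, and Igfbp4 and Igfbp5 are known from granulosa cells of atretic follicles.

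Expression was given as FPKM, fragments scaled to transcript length and to the number of mapped fragments, and differences were computed on log2(FPKM + 1), a scale on which changes of weakly expressed genes come out too small. The FPKM of a library summed to between 339830 and 373758. The number of reads behind these values, and with it the depth, is unknown, but the steps between values under 0.1 FPKM put the libraries between 0.918 and 1.12 times the depth of Control replicate 1. Markers of granulosa cells, theca cells, luteal cells and oocytes were all detected in every group. Control replicate 3 stood apart in its markers of other tissue. The sum of 3 markers of ciliated oviduct epithelium was 65.0 FPKM in it and 13.2 FPKM in Control replicate 4, against 1.67 to 3.82 FPKM in the other 10 libraries. The sum of 5 smooth muscle markers was 888 FPKM in Control replicate 3 and 324 to 665 FPKM in the other 11 libraries, and its sum of 5 proliferation markers, 35.7 FPKM, was the lowest of the control group, where the others had 62.8 to 90.8 FPKM. Since whole ovaries were sequenced, more cells of a type and more RNA per cell cannot be told apart in any of the values below. Because 1 library per rat is the only replication, p-values set a difference between groups against the spread between rats of a group, which includes that between libraries.

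In the PCOS group, the ligand Igf1 rose while both receptors fell, and some binding proteins rose while another fell. Compared with the control group, Igf1, Igfbp2 and Igfbp6 were higher and Igf1r, Igf2r and Igfbp3 lower, whereas Igf2, Igfbp4 and Igfbp5 did not pass the test (limma, Benjamini-Hochberg adjusted p under 0.05 over 13430 genes). These were 3 members higher and 3 lower of 9, beside 27.4% of all genes tested that were called in either direction, 11.9% higher and 15.6% lower. The median log2 fold change was -0.07 over the 9 members and -0.03 over all genes tested. Among all genes tested, Igfbp2 had the 27th highest and Igf1 the 130th highest log2 fold change, while Igfbp3 was the 64th and Igf2r the 258th from the lowest.

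**Figure D1:**
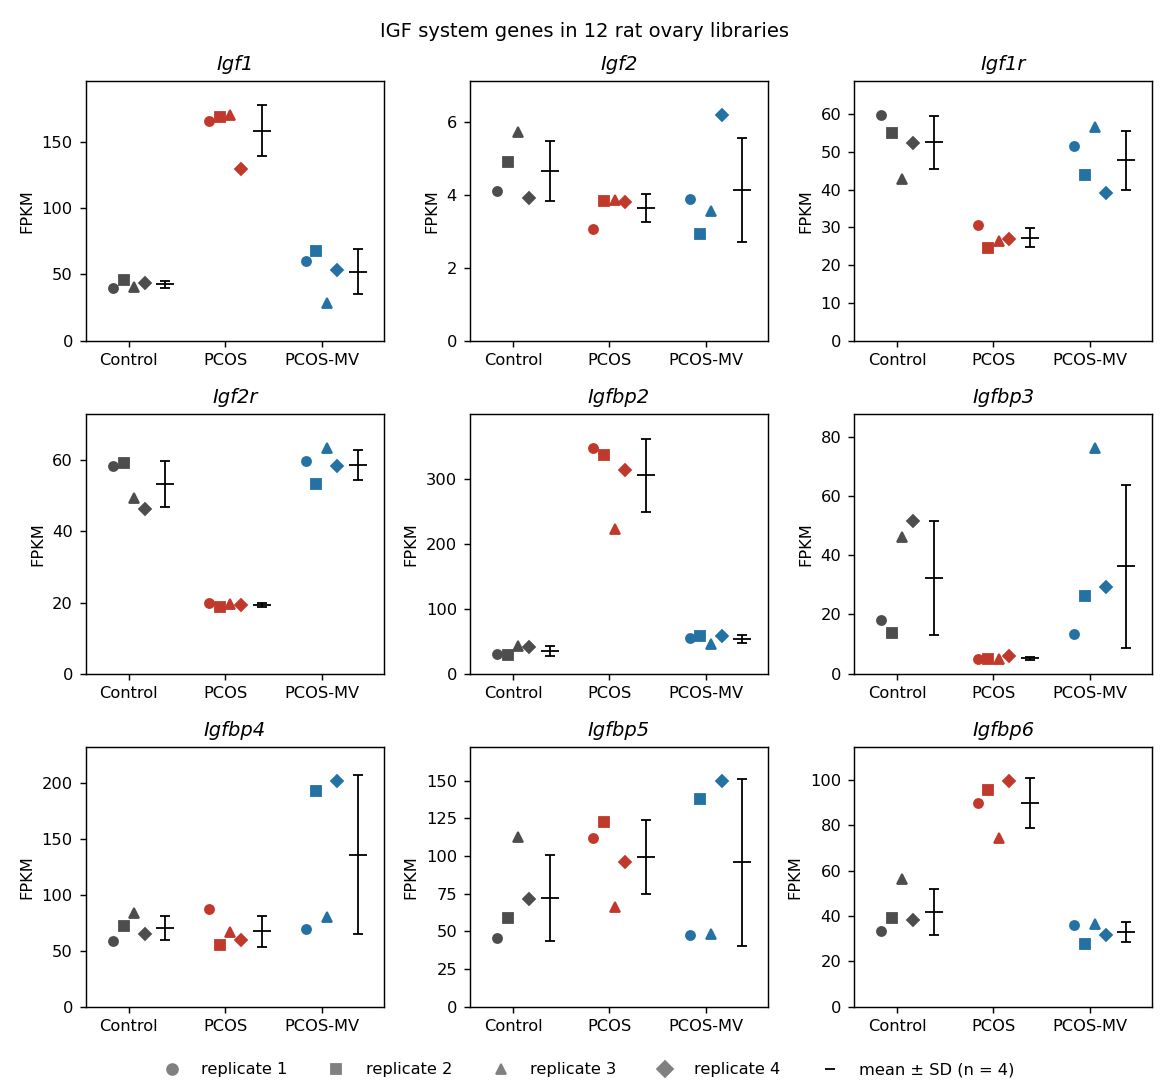
FPKM of each of the 9 IGF genes, with 1 point per library and the mean of each group of 4 marked. The PCOS points of Igf1, Igfbp2 and Igfbp6 lie above all control and PCOS-MV points, those of Igf1r, Igf2r and Igfbp3 lie below them, and the PCOS-MV points of Igfbp4 and Igfbp5 are divided into a low and a high pair.

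Igf1, the ligand that enhances FSH action in the follicle, was at 39.9, 45.5, 40.6 and 43.5 FPKM in control rats, at 165, 169, 170.3 and 129.6 in PCOS rats and at 59.7, 67.3, 28.0 and 53.2 in PCOS-MV rats, here and below in order of replicate number. The lowest PCOS value was above the highest value of either other group, and the control range lay inside the PCOS-MV range. Igf1 rose in the PCOS group by 1.87 ± 0.10 (SE) on the log2 scale, a ratio of mean FPKM of 3.74 (limma adjusted p = 9.904e-06). In the PCOS-MV group it was lower than in the PCOS group by a log2 fold change of -1.65 ± 0.25 (limma adjusted p = 0.00229). PCOS-MV replicate 3, at 28.0 FPKM, was the only library of its group under the control range, and the coefficient of variation was 32.7% in the PCOS-MV group and 6.09% in the control group.

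Igf2, the ligand most used in fetal growth, was low in these adult ovaries, at 4.11, 4.90, 5.71 and 3.90 FPKM in control rats, at 3.07, 3.82, 3.85 and 3.80 in PCOS rats and at 3.88, 2.91, 3.55 and 6.18 in PCOS-MV rats. All 4 PCOS values lay below all 4 control values, and the ranges of these groups were likewise apart for 31.0% of all genes tested. The log2 fold change of -0.28 (95% confidence interval -0.55 to -0.005) did not pass the adjustment over all genes (limma adjusted p = 0.121). An exact two-sided permutation test of 4 against 4 libraries gave p = 0.0286, the smallest that its 70 divisions allow. Against the PCOS group, the PCOS-MV group had a log2 fold change of 0.11 with an interval of -0.29 to 0.52. Igf1 exceeded Igf2 in FPKM by 7.11 to 11.1 times in the control libraries, by 34.1 to 53.9 times in the PCOS libraries and by 7.88 to 23.1 times in the PCOS-MV libraries. FPKM are per length, but the length used for each gene is not given, and such ratios between genes depend on it.

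Both receptors were lower in the PCOS group. Igf1r, the signalling receptor, was at 59.8, 55.0, 43.0 and 52.5 FPKM in control rats, at 30.7, 24.7, 26.5 and 27.03 in PCOS rats and at 51.7, 44.0, 56.5 and 39.02 in PCOS-MV rats. The PCOS values did not overlap those of either other group, and the control and PCOS-MV values overlapped. In PCOS rats Igf1r fell by 0.92 ± 0.11 in log2 terms (limma adjusted p = 0.000545), to 0.518 of the control mean, and was higher by 0.78 ± 0.12 in PCOS-MV than in PCOS rats (limma adjusted p = 0.00275). Both of these changes were smaller than 2-fold.

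Igf2r, the receptor that clears IGF2, was at 58.3, 59.4, 49.3 and 46.4 FPKM in control rats, at 19.8, 18.7, 19.5 and 19.4 in PCOS rats and at 59.9, 53.4, 63.5 and 58.3 in PCOS-MV rats. The 4 PCOS rats gave almost the same value, with a coefficient of variation of 2.38%, against 12.1% in the control group and 7.14% in the PCOS-MV group. In PCOS rats Igf2r fell by 1.41 ± 0.09 (log2), to 0.363 of the control mean (limma adjusted p = 2.139e-05). The PCOS-MV group was higher than the PCOS group by 1.55 ± 0.07, a ratio of means of 3.04 (limma adjusted p = 1.391e-05). In level, Igf2r was 0.884 to 1.147 times Igf1r in the control libraries, 0.645 to 0.759 times in the PCOS libraries and 1.12 to 1.49 times in the PCOS-MV libraries. The FPKM of Igf1 over that of Igf1r was 0.667 to 0.945 in the control libraries, 4.80 to 6.85 in the PCOS libraries and 0.495 to 1.53 in the PCOS-MV libraries. The FPKM of the ligand thus exceeded that of its receptor in all 4 PCOS libraries, in 3 of 4 PCOS-MV libraries and in no control library. Igf1 has 4 transcripts of 772 to 1879 bases, and the length to which its FPKM was scaled is not given. Whether its messenger RNA exceeded that of the receptor depends on this length.

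The binding proteins did not move as a group. Igfbp2, the theca and interstitial product, was at 29.6, 28.2, 42.2 and 40.9 FPKM in control rats, at 348, 337, 223 and 313 in PCOS rats and at 54.4, 58.1, 45.2 and 57.6 in PCOS-MV rats. The 3 ranges did not overlap, with the PCOS-MV libraries between the other groups and near the controls. It rose in the PCOS group by 3.08 ± 0.18 on the log2 scale, 8.66 times in mean FPKM (limma adjusted p = 1.524e-05), the largest change of any member. The PCOS-MV group had a log2 fold change of -2.47 ± 0.15 against the PCOS group (limma adjusted p = 5.264e-05).

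Igfbp6, which binds IGF2 with preference, was at 33.2, 39.1, 56.4 and 38.4 FPKM in control rats, at 89.7, 95.6, 74.5 and 99.6 in PCOS rats and at 36.1, 27.6, 36.6 and 31.7 in PCOS-MV rats. Every PCOS library exceeded every library of the other groups. The rise in the PCOS group was 1.11 ± 0.16 on the log2 scale (limma adjusted p = 0.00143), and the log2 fold change of the PCOS-MV group against the PCOS group was -1.42 ± 0.12 (limma adjusted p = 0.000191).

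Igfbp3, the main carrier of IGFs in serum, was at 18.1, 13.6, 46.1 and 51.5 FPKM in control rats, at 4.78, 4.97, 4.91 and 5.97 in PCOS rats and at 13.3, 26.4, 76.2 and 29.2 in PCOS-MV rats. It was low and even in the PCOS group and spread widely in the others, with a coefficient of variation of 10.6% in the PCOS group, 59.6% in the control group and 75.8% in the PCOS-MV group. Control replicates 3 and 4, with the most Igfbp3 of their group, also had raised ciliated oviduct markers. Their sums were 65.0 and 13.2 FPKM, against 1.88 and 3.01 FPKM in Control replicates 1 and 2. PCOS-MV replicate 3, the highest in Igfbp3, had a sum of 3.08 FPKM. The part of oviduct tissue in the Igfbp3 values was not tested. In PCOS rats Igfbp3 fell by 2.23 ± 0.39 in log2 FPKM (limma adjusted p = 0.00368), and the control mean was 6.26 times the PCOS mean. It was higher by 2.33 ± 0.43 in PCOS-MV than in PCOS rats (limma adjusted p = 0.00546), a ratio of means of 7.03.

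Igfbp4, the substrate of Pappa, was at 58.8, 72.5, 84.1 and 65.3 FPKM in control rats, at 87.2, 55.5, 67.0 and 59.8 in PCOS rats and at 69.3, 193, 80.1 and 202 in PCOS-MV rats. The control and PCOS ranges overlapped throughout, and PCOS-MV replicates 2 and 4 were far above all other libraries. Igfbp5 was at 45.8, 59.2, 112 and 71.2 FPKM in control rats, at 112, 123, 66.4 and 95.8 in PCOS rats and at 47.9, 138, 48.3 and 149.8 in PCOS-MV rats. The same PCOS-MV replicates 2 and 4 were again the highest of all. Between the PCOS and control groups, the log2 fold change was -0.07 for Igfbp4 (95% confidence interval -0.43 to 0.29, limma adjusted p = 0.784) and 0.50 for Igfbp5 (-0.15 to 1.14, limma adjusted p = 0.227). Without Control replicate 3, the library with the highest oviduct and smooth muscle markers, the log2 fold change of Igfbp5 was 0.73 and was called higher (limma adjusted p = 0.0439), and 4 members were then higher and 3 lower. This library also had the highest Igfbp5 of the control group. It was the only 1 of 8 fits with 1 library left out that called Igfbp5, whose log2 fold change ran from 0.31 to 0.73 over them. The calls of the other members did not change without Control replicate 3.

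**Figure D2:**
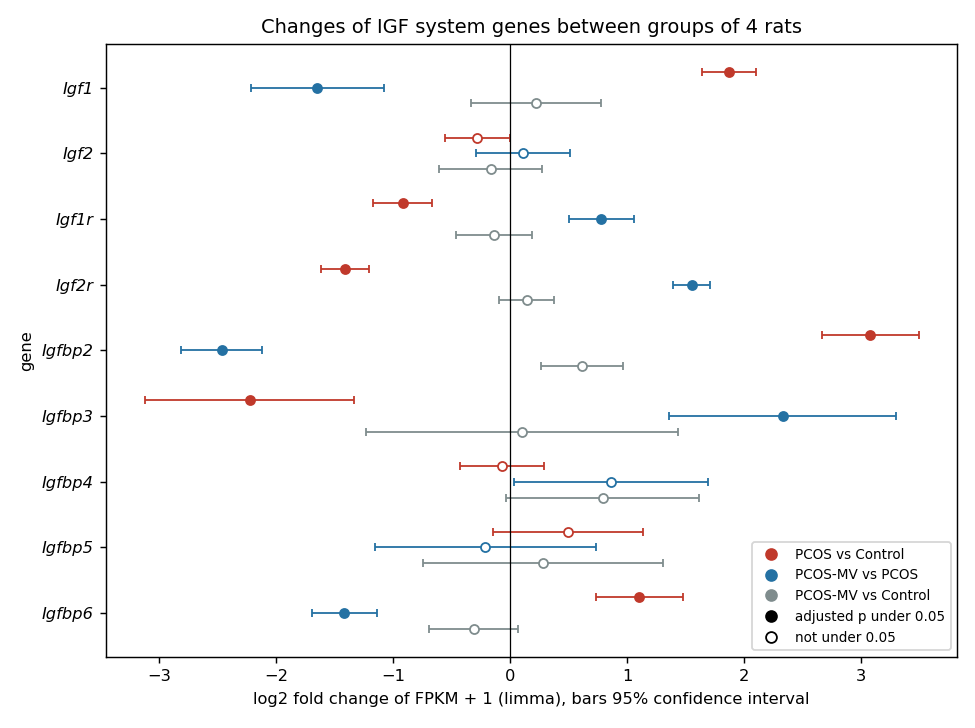
Log2 fold change on log2(FPKM + 1) of the 9 IGF genes in each of the 3 comparisons, with the limma 95% confidence interval as bars. Igfbp2 reaches 3.08 and Igfbp3 -2.23 in the PCOS group against the control group, while in the PCOS-MV group against the control group the interval crosses 0 for each gene except Igfbp2.

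In the PCOS-MV group compared with the PCOS group, 3 members were higher, Igf1r, Igf2r and Igfbp3, and 3 were lower, Igf1, Igfbp2 and Igfbp6. Of all genes tested, 25.7% were called in this comparison, 14.3% higher and 11.4% lower, and the median log2 fold change was 0.11 over the members and 0.03 over all genes. The 4 PCOS libraries enter both this comparison and that with the control group, so the direction in one is not independent of the direction in the other. For Igfbp4 the log2 fold change was 0.86 (95% confidence interval 0.04 to 1.69, limma adjusted p = 0.117), and for Igfbp5 it was -0.21 (-1.16 to 0.73, limma adjusted p = 0.741). Igfbp4 was called in 1 of 8 fits that left out 1 library, when PCOS-MV replicate 1 was left out, at a log2 fold change of 1.13 (limma adjusted p = 0.0428). That library had the lowest Igfbp4 of its group, 69.3 FPKM, and over the 8 fits the log2 fold change ran from 0.62 to 1.13. In each of the 2 comparisons with the PCOS group the 6 called members kept their call in 8 of 8 fits that left out 1 library, and their ranges did not overlap (exact permutation p = 0.0286 each), as held for 31.0% of all genes between the PCOS and control groups and for 30.0% between the PCOS-MV and PCOS groups.

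Set directly against the control group, none of the 9 members was called in the PCOS-MV group by limma, where 0.00745% of all genes tested, which is 1 gene, was called. Only Igfbp2 had an unadjusted p under 0.05 among the members (0.00372 by limma over all genes, adjusted p = 0.477). All 4 PCOS-MV libraries were above all 4 control libraries for this gene, which held for 5.1% of genes in either direction, and the log2 fold change was 0.61 (95% confidence interval 0.26 to 0.97), a ratio of means of 1.53. For other members the 95% confidence intervals were -0.09 to 0.38 on the log2 scale for Igf2r, -0.46 to 0.19 for Igf1r, -0.69 to 0.07 for Igfbp6 and -0.33 to 0.78 for Igf1. The intervals were wide for Igfbp3 (-1.23 to 1.43), Igfbp5 (-0.75 to 1.31) and Igfbp4 (-0.03 to 1.62), so a 2-fold difference lay within the interval of each of these 3.

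Because FPKM are per length, the levels of the binding proteins were set side by side within a library, but the length used for each gene is not given. Igfbp5 has 2 transcripts, of 1618 and 5866 bases, so the shares and its ratio to Igfbp4 depend on that length. The sum of Igfbp2 to Igfbp6 was 185.5 to 341 FPKM in control rats, at 436 to 641 in PCOS rats and at 221 to 470.3 in PCOS-MV rats. All PCOS sums were above all control sums, and the PCOS-MV sums overlapped both. Igfbp2 made up 14.2% of the sum on average in the control group (12.4% to 16.0% over 4 libraries), 53.7% in the PCOS group (51.2% to 54.7%) and 16.4% in the PCOS-MV group (12.3% to 24.6%). The share of Igfbp3 was 12.2%, 0.93% and 11.2% in the same order, and that of Igfbp4 28.7%, 12.1% and 36.5%. Igfbp6 rose in level in the PCOS group, but its share was 16.8% in the control group and 16.0% in the PCOS group.

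**Figure D3:**
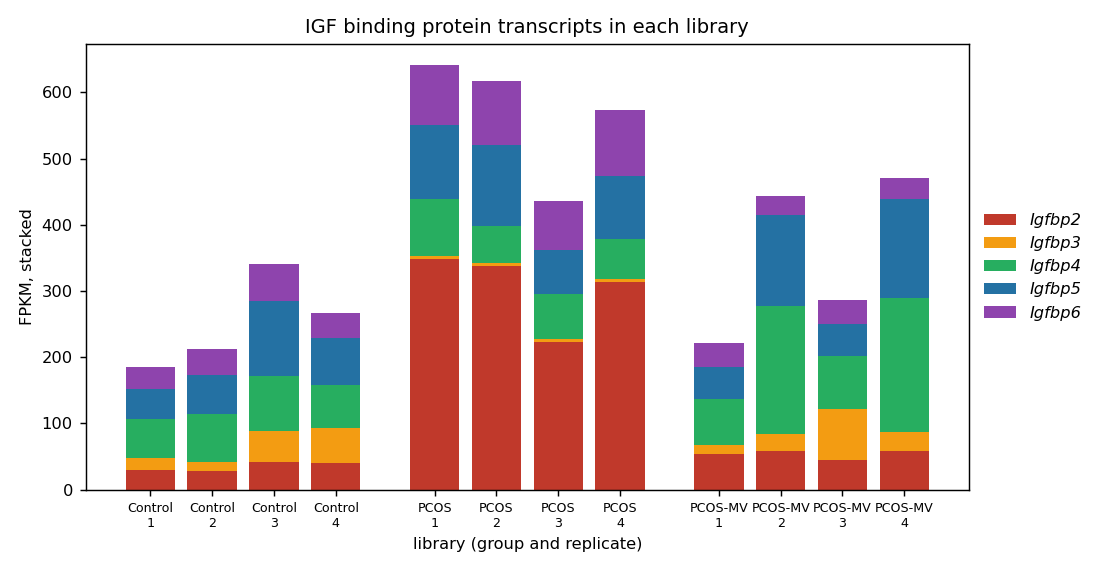
Stacked FPKM of Igfbp2 to Igfbp6 in each of the 12 libraries, with the axis starting at 0. Igfbp2 fills 51.2% to 54.7% of each PCOS bar, and Igfbp4 with Igfbp5 make the PCOS-MV bars of replicates 2 and 4 taller than those of replicates 1 and 3.

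The order of the members by FPKM followed the same pattern. In the PCOS group it ran Igfbp2, Igf1, Igfbp5, Igfbp6, Igfbp4, Igf1r, Igf2r, Igfbp3 and Igf2, and only Igfbp5, Igfbp6 and Igfbp4 overlapped with a neighbour in this order. In the control and PCOS-MV groups every pair of neighbours overlapped in range except that Igf2 was below all others. The table places Igfbp2 (chromosome 9, 80118029 to 80144789, plus strand) and Igfbp5 (chromosome 9, 80150211 to 80167033, minus strand) 5.42 kb apart with 0 genes between them, in coordinates of a build that the sources used here do not name. These neighbours had log2 fold changes of 3.08 and 0.50 in the PCOS group against the control group. Igfbp3 (chromosome 14, 87457647 to 87465374, minus strand) lies 3.86 kb from Igfbp1, a binding protein known from liver and decidua that was at 0.403 FPKM or less in every library.

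The promoter sequences of the genes with the 2 largest rises and the 2 largest falls in the PCOS group are shown to allow their composition to be compared. Each is the 250 bases before the start of the RefSeq gene model on GRCr8, read 5′ to 3′ on the gene's strand, at chr9:81864561-81864810 (plus strand) for Igfbp2, chr7:24172282-24172531 (plus strand) for Igf1, chr14:86277945-86278194 (minus strand) for Igfbp3 and chr1:50526628-50526877 (plus strand) for Igf2r. Capitals mark matches on either strand to the motifs searched, which were the GC box GGGCGG, the E box CACGTG, its longer form TCACGTGA, the TATA box TATAAA and the nuclear receptor (NR5A) element AAGGTCA.
Igfbp2: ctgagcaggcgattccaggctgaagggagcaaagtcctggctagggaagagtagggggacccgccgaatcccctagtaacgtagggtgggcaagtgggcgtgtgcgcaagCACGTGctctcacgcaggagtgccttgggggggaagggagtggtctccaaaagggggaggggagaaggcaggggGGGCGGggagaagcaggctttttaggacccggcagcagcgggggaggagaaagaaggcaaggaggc
Igf1: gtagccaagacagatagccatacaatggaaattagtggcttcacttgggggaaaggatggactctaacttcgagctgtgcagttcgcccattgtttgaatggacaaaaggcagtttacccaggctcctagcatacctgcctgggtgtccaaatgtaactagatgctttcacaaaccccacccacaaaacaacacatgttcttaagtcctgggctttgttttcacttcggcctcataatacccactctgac
Igfbp3: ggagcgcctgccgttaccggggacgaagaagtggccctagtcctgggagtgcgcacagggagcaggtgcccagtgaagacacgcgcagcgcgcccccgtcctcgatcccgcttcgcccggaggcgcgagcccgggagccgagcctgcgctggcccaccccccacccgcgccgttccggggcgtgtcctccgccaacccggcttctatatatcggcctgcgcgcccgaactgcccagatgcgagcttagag
Igf2r: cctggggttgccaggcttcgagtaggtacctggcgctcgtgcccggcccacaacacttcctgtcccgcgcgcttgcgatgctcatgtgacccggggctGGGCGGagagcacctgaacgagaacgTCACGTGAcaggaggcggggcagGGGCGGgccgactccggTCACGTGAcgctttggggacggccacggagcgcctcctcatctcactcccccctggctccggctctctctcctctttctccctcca

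The Igf2r window held TCACGTGA 2 times, beginning 126 and 86 bases before the start, each with a CACGTG inside it, and GGGCGG 2 times, at 152 and 103 bases. Of 33469 promoter windows of this length in the rat table, 220 (0.657%) held TCACGTGA at least 1 time and 12 (0.0359%) held it 2 or more times. TCACGTGA is known as the core of the element that Tfeb binds at genes of lysosomal proteins. The Igfbp2 window held CACGTG at 140 bases and GGGCGG at 66 bases before the start, while 5.59% of all windows held CACGTG and 30.5% held GGGCGG. The windows of Igf1 and Igfbp3 held none of the 5 motifs, and their content of G and C was 46.8% for Igf1 and 71.6% for Igfbp3. Among the other members, Igf1r held CACGTG at 31 bases and GGGCGG at 184 bases, 1 of the 2 windows of Igf2 held GGGCGG, and Igfbp4 held TATAAA at 40 bases, a motif in 12.9% of all windows. AAGGTCA, in 3.99% of all windows, was in none of the 10 windows of the 9 members. A match is a description of letters, and these data do not measure binding.

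Other genes of the IGF system were taken as a list of 16 names, of which 14 had a row and 7 were expressed highly enough to be tested. In the PCOS group against the control group 2 were higher, 1 was lower and 4 did not pass, beside 27.4% of all genes that were called. Stc2, a secreted inhibitor of Pappa, was at 8.18, 9.54, 17.2 and 6.95 FPKM in control rats, at 35.2, 28.6, 14.5 and 30.5 in PCOS rats and at 9.73, 7.62, 5.13 and 5.77 in PCOS-MV rats. It rose by 1.31 ± 0.32 on the log2 scale (limma adjusted p = 0.0160), although Control replicate 3 and PCOS replicate 3 overlapped, and was lower in PCOS-MV than in PCOS rats with a log2 fold change of -1.77 ± 0.28 (limma adjusted p = 0.00272). Igfbp7, a relative that binds IGFs weakly and insulin, had a mean of 213 FPKM in control, 317 in PCOS and 219 in PCOS-MV rats, a rise of 0.57 ± 0.08 (limma adjusted p = 0.00122) and a log2 fold change of -0.53 ± 0.08 against the PCOS group (limma adjusted p = 0.00208). Prss23, a secreted serine protease, went the other way, with group means of 127 FPKM, 43.5 FPKM and 131 FPKM (log2 fold change -1.55 ± 0.20, limma adjusted p = 0.000684, and 1.59 ± 0.20, limma adjusted p = 0.000872).

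Between the PCOS-MV and PCOS groups 1 of the 7 genes was higher, Prss23, and 3 were lower, Igfbp7, Stc2 and Ghr, beside 25.7% of all genes that were called. Ghr, the growth hormone receptor, had a mean of 18.97 FPKM in PCOS rats and 11.6 in PCOS-MV rats (log2 fold change -0.66 ± 0.10, limma adjusted p = 0.00229). Htra1, a serine protease known to cut Igfbp5, was between 93.6 and 121 FPKM in all 12 libraries and did not pass either test. Of the 7, limma called 0 between PCOS-MV and control rats, and 1, Ghr, was at an unadjusted p under 0.05.

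Genes that carry the signal of the receptor inside the cell were called about as often as all genes. Of 22 genes from Irs1 and Irs2 to Mtor and Foxo1, all of them tested, 3 were higher, 2 lower and 17 not called in the PCOS group against the control group, with a median log2 fold change of -0.02. The 5 called of 22 stand beside 27.4% of all genes, and the 6 called of 22 between the PCOS-MV and PCOS groups beside 25.7%. Pik3r1 and Pik3r2, regulatory subunits of PI3 kinase, rose by 0.64 ± 0.13 and 0.64 ± 0.07 on the log2 scale (limma adjusted p = 0.00770 and 0.000328). Pik3cb, a catalytic subunit, fell by 0.41, and Shc1, an adaptor of receptor kinases, fell by 0.23, a call that held in 2 of 8 fits with 1 library left out. In the PCOS-MV group against the PCOS group 3 were higher, Mtor by 0.40, Shc1 by 0.27 and Tsc2 by 0.22, 3 were lower, and 16 were not called. With 1 library left out, the call of Mtor held in 7 of 8 fits, that of Shc1 in 3 and that of Tsc2 in 2. The lower genes included Foxo1, a transcription factor held in the cytoplasm by Akt, at a log2 fold change of -0.83 ± 0.19 (limma adjusted p = 0.0151), and Pik3r1 at -0.72. None of the 22 was called by limma between the PCOS-MV and control groups, and 3 were at an unadjusted p under 0.05. Insr, the insulin receptor and a close relative of Igf1r, which was counted with the other IGF system genes, was between 21.5 and 27.4 FPKM in every library, with a log2 fold change of -0.10 (95% confidence interval -0.29 to 0.09) in the PCOS group against the control group.

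Markers of some cell types also differed between the groups, and those of others did not. Between the PCOS and control groups, 0 of 5 tested oocyte markers and 0 of 5 smooth muscle markers were called. Of 7 stroma markers 2 were higher and 3 lower, 1 of 4 tested leukocyte markers was higher and 1 of 5 proliferation markers was lower. Of 10 granulosa markers 5 were called higher and 1 lower in the PCOS group against the control group, where 11.9% of all genes were called higher and 15.6% lower, and their summed level was 973 to 1335 FPKM in control, 1555 to 2242 in PCOS and 858 to 1478 in PCOS-MV rats. Of 6 theca markers 3 were higher and 2 lower, with sums of 1382 to 3137 FPKM, 2363 to 4476 FPKM and 799 to 2855 FPKM. The 2 most theca-specific of them stood far higher in the PCOS group, as Cyp17a1, the androgen-making enzyme, had group means of 34.6 FPKM, 1190 FPKM and 37.4 FPKM, and Insl3, a theca hormone, 5.70 FPKM, 1032 FPKM and 7.89 FPKM. Lhcgr was also higher, and Gli1 was not called. The 2 lower were Cyp11a1, at a log2 fold change of -1.14 (limma adjusted p = 0.0161), and Ptch1, at -0.43 (limma adjusted p = 0.0293). The call of Ptch1 held in 2 of 8 fits with 1 library left out. Cyp11a1 had group means of 2194, 968 and 1492 FPKM and made up most of the theca sum in the control and PCOS-MV groups. For the 6 luteal markers with a row of 7 named, 1 was higher and 4 were lower, and the sums were 3037 to 5127 FPKM, 1168 to 2277 FPKM and 2227 to 4681 FPKM. Of 4 adipocyte markers the 2 that were tested, Adipoq and Cfd, were lower in the PCOS group, Adipoq with 13.2 FPKM in control and 1.52 in PCOS rats (limma adjusted p = 0.0111) and Cfd with a call that held in 2 of 8 fits with 1 library left out. The adipocyte sums were 24.2 to 77.8 FPKM in control, 13.9 to 24.96 in PCOS and 10.5 to 16.9 in PCOS-MV rats, so that all control values lay above the PCOS-MV values and 3 of 4 above the PCOS values. No marker of these lists was at 0 in a whole group. The part of cell makeup in the changes of Igf1, Igfbp2, Igfbp6 and the receptors was not tested.

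In the control and PCOS-MV groups, but not in the PCOS group, Igfbp3 and the sum of endothelial markers were highest in the same library. PCOS-MV replicates 2 and 4 were in opposite order, at 26.4 and 29.2 FPKM of Igfbp3 and endothelial sums of 94.9 and 91.3 FPKM. Within the PCOS group Igfbp3 spanned only 4.78 to 5.97 FPKM, and no correlation with the sum was computed. All 5 endothelial markers with a row of 6 named were called lower in PCOS than in control rats, as were 15.6% of all genes, with sums of 104.5 to 133 FPKM in control, 60.5 to 76.7 in PCOS and 86.8 to 128.9 in PCOS-MV rats. Between the PCOS-MV and PCOS groups 3 of the 5 were called higher, as were 14.3% of all genes, and Emcn and Tek were not called. The highest endothelial sum of the control group was in replicate 4 and that of the PCOS-MV group in replicate 3, the libraries with the highest Igfbp3 of their groups. In the PCOS group, replicate 1 had the highest endothelial sum, 76.7 FPKM, and the lowest Igfbp3, 4.78 FPKM. By Pearson correlation of log2(FPKM + 1) over the 12 libraries, the genes most like Igfbp3 were Frrs1 (r = 0.977), Snrk (0.967) and Dll4 (0.962), a Notch ligand of endothelium. After removal of the group means the correlations were 0.946, 0.880 and 0.936. Dll4 was at 3.64, 3.12, 5.35 and 7.06 FPKM in control rats, at 2.39, 1.77, 2.46 and 1.91 in PCOS rats and at 2.83, 3.82, 6.86 and 4.13 in PCOS-MV rats. Among the luteal markers, Ptgfr, the receptor of prostaglandin F2-alpha and named here after its values were seen, was likewise highest in Control replicate 3 (152 FPKM), Control replicate 4 (128 FPKM) and PCOS-MV replicate 3 (173 FPKM), and its PCOS values ran from 13.9 to 31.8 FPKM. The luteal list as a whole did not run this way in the control group, as its sums of 5127, 4444, 3037 and 3261 FPKM were lowest in replicates 3 and 4, where Igfbp3 was highest. In the PCOS-MV group the highest luteal sum, 4681 FPKM, was in replicate 3, the library with the highest Igfbp3. In the PCOS group the highest luteal sum, 2277 FPKM, was in replicate 1, the library with the lowest Igfbp3. Whether vessels, luteal tissue or attached oviduct tissue carry the Igfbp3 signal was not tested.

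For Igfbp2 the most alike genes included Appl2 (r = 0.988) and Raver2 (0.987), and for Igf1 they were Smarca1 (0.971), Amd1 (0.968) and Glul (0.966). All 12 libraries share the 3 groups, and much of each of these correlations is the difference of the PCOS group from the others. With the group means removed they were 0.568 and 0.619 for Igfbp2 and 0.707, 0.665 and 0.648 for Igf1. Glul, which makes glutamine, had means of 103 FPKM in control, 670.4 in PCOS and 133 in PCOS-MV rats.

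The division of the PCOS-MV group for Igfbp4 and Igfbp5 went with other genes as well. Replicates 2 and 4, at 193 and 202 FPKM of Igfbp4 and at 138 and 149.8 FPKM of Igfbp5, had theca sums of 799 and 829.4 FPKM and luteal sums of 2250 and 2227 FPKM. Replicates 1 and 3 had 69.3 and 80.1 FPKM of Igfbp4, theca sums of 2855 and 1940 FPKM and luteal sums of 4343 and 4681 FPKM. Most of the theca sum in this group was Cyp11a1, with a mean of 1492 FPKM (757 to 2632), and Lhcgr was counted in both lists. Cyp17a1 was at 1.57 and 6.41 FPKM in replicates 2 and 4 and at 88.1 and 53.4 FPKM in replicates 1 and 3. Insl3 did not divide in this way, at 14.5, 6.27, 4.91 and 5.88 FPKM in replicates 1 to 4, with replicate 3 the lowest. Igfbp4 was 1.348 to 1.66 times Igfbp5 in all 4 PCOS-MV libraries, so the pair kept a similar proportion in the high and the low libraries, while this ratio was 0.748 to 1.28 in the control group and 0.452 to 1.01 in the PCOS group. These rats carry the same label, the division was noticed after the values were seen, and no test was made between the pairs.

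**Figure D4:**
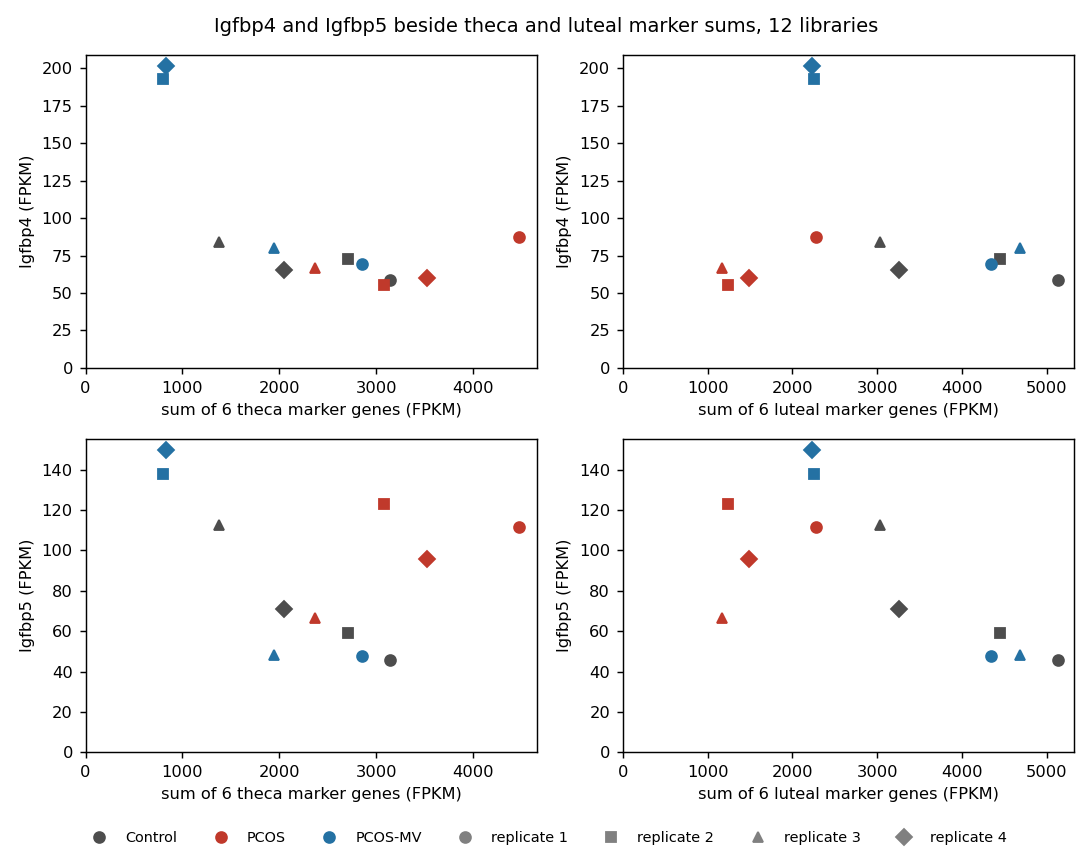
FPKM of Igfbp4 and of Igfbp5 in each library against the summed FPKM of the theca and of the luteal markers in the same library, with 1 point per library coloured by group. PCOS-MV replicates 2 and 4 lie highest in Igfbp4 and Igfbp5 and, at 799 and 829.4 FPKM, lowest of all 12 libraries in the theca sum. In the PCOS-MV group most of the theca sum is Cyp11a1.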

How the data were processed

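Ovarian RNA of 12 rats was sequenced in 1 library per rat, and libraries were grouped by their titles. The authors deposited FPKM per gene, repeated on 26928 transcript lines whose values did not differ within a gene, so 1 line was kept for each of 19730 genes. For the aligner and counter the sources differ: the submitters' processing notes name STAR 2.5.1b and HTSeq 0.6.0, the paper's methods HISAT2 and featureCounts, so which produced the FPKM is unsure. The genome build is not given in the sources used here. Columns headed MG were taken as the PCOS-MV group, the only group not otherwise named in the header. Group means, log2 fold changes and p-values of the authors' own comparisons were also deposited and were not used.

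The 10 members and all gene lists were chosen with earlier results of these data known. Named were every member, genes of the other lists that were called, markers, and the 3 genes most correlated with each of the 3 members with the largest change, of which some are not reported here. The 13430 genes whose mean over the libraries reached 1 FPKM were tested after transformation to log2(FPKM + 1), using limma 3.58.1 (R 4.3.3; lmFit, then eBayes with trend), 2 groups at a time, without covariate, with Benjamini-Hochberg adjustment. Single members were compared by exact two-sided permutation tests. The fit was tested on simulated data before use. No 2 libraries were identical, and within a group log2(FPKM + 1) correlated at 0.921 to 0.978 between libraries. Promoters came from RefSeq (GRCr8), where all 9 members matched, and are not in the coordinates of the expression table. Plots were drawn with matplotlib 3.10.9 in Python 3.11.15. Alternatives were a pseudocount of 0.1, no filter, 1 model for all groups, rescaling by median ratio, a 2-fold threshold, a replicate block, and each library left out.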

Additional observations from a re-analysis of the deposited data

Results flagged for a closer look

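In 3 of 27 member and group combinations examined, 1 library of 4 lay apart from the rest by more than Dixon's 95% critical value of 0.829 (gap divided by range), where chance alone gives about 1 in 20. All 3 were in the PCOS group. Igf1 in PCOS replicate 4 was the lowest at 129.6 FPKM (0.878), Igfbp3 in the same library was the highest at 5.97 FPKM (0.842), and Igf2 in PCOS replicate 1 was the lowest at 3.07 FPKM (0.932). Igf1 and Igfbp3 kept their calls in both comparisons with the PCOS group when this library was left out.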

How the results depend on the processing

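In both comparisons with the PCOS group, 3 members were higher and 3 lower under a pseudocount of 0.1, no filter, 1 model for all groups, rescaling by median ratio and the replicate block. A 2-fold threshold left 907 genes called between the PCOS and control groups and 751 between the PCOS-MV and PCOS groups, and removed Igf1r from both. Leaving out 1 library gave 2762 to 3915 and 2445 to 3354 genes, and 1 to 4 genes between the PCOS-MV and control groups. Members that changed sign when 1 library was left out were not called. Their log2 fold changes ranged from -0.197 to 0.023 for Igfbp4 between the PCOS and control groups, from -0.062 to 0.231 for Igf2 and from -0.493 to 0.049 for Igfbp5 between the PCOS-MV and PCOS groups, and from -0.338 to 0.473 for Igfbp3 between the PCOS-MV and control groups. The cause was not tested. Rescaling moved the median of all genes by less than 0.1 on the log2 scale.

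With the replicate number as a block, 2905, 3079 and 0 genes were called in the 3 comparisons, against 3684, 3448 and 1 without it. Libraries of the same number correlated, in their deviations from the group means, at -0.03 to 0.02, 0.04 to 0.17 and -0.05 to 0.22, and 0, 7 and 2 of 8 libraries correlated best with their own number. Not every pair of a comparison exceeded 0.1, so the block was not taken as the main fit. Between the PCOS-MV and PCOS groups 3 of 4 pairs exceeded 0.1, a hint from the data and not from the design. The block changed no call of a member. The unknown depth and 4 rats a group limit what the intervals of Igfbp3, Igfbp4 and Igfbp5 can show.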

Other observations

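Members of the wider IGF system below the limit for testing were low in all groups. Igfals, the subunit that holds Igfbp3 complexes in serum, had group means of 0.135 FPKM in control, 0.159 in PCOS and 0.129 in PCOS-MV rats. Igf2bp2 and Igf2bp3, which bind the Igf2 messenger RNA, had means of 0.823 to 0.881 FPKM and 0.189 to 0.308 FPKM. Pappa2, a relative of Pappa that cuts Igfbp3 and Igfbp5, was at 1.11 FPKM in Control replicate 3, the library with 65.0 FPKM of ciliated oviduct markers, and at 0.0226 to 0.242 FPKM in the other 11 libraries.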
